A study of Rattus norvegicus with 10 samples.

Results

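The synaptic vesicle and release machinery was followed in the nucleus tractus solitarii (NTS) of rats through 32 genes: the SNARE proteins with their regulators, the synaptotagmins, the proteins of the vesicle membrane, the scaffold of the active zone, and the coat and endocytic proteins. Its members were all probe sets that the platform's annotation assigns to 1 of these genes alone, 52 of 31042 on the array (32 of 14217 named genes). No measured signal entered that assignment, but the list of genes was drawn up with earlier results of these data known. The NTS is the part of the caudal brainstem where afferents from arterial baroreceptors make their first synapse. It was dissected from male spontaneously hypertensive rats (SHR), an inbred line with high blood pressure, and from male Wistar-Kyoto rats (WKY), the related line with normal pressure that serves as its control, at 10 to 13 weeks of age in both strains. The 10 Affymetrix arrays, 5 for each strain, are called independent replicates in the design text, while each sample is described as tissue of 5 animals, so a sample may be a pool. No treatment or transgene is named for either strain. The comparison asks which members differ in transcript level between the strains.

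Neurotransmitter leaves the nerve terminal when a synaptic vesicle fuses with the plasma membrane. The vesicle SNARE proteins Vamp1 and Vamp2 zip up with Stx1a and Snap25 on the plasma membrane, complexins hold and assist the partly zipped complex, a synaptotagmin triggers fusion when calcium enters, and Nsf with the SNAP proteins takes the spent complex apart. Rims1, Unc13a, Bsn and Pclo organise and prime vesicles at the active zone, and clathrin, dynamin, amphiphysin, endophilin (Sh3gl2) and synaptojanin bring the membrane back. In the NTS this machinery serves both the central endings of visceral afferents and the local neurons.

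A probe set was tested if its signal reached the 40th percentile of the array on at least 5 of the 10 arrays. This left 37 of the 52 probe sets, from 25 of the 32 genes. Of all 18846 probe sets that were tested, 4.26% passed in limma (adjusted p below 0.05). An unadjusted p below 0.05 was seen for 21.0%, and the marker counts below are to be read beside these shares. Although all arrays share 1 trimmed mean, median signals were 44.2 to 49.8 for SHR and 39.6 to 45.7 for WKY, highest on SHR 3 and SHR 2 and lowest on WKY 5 and WKY 4. Of 12 neuronal markers, with 17 tested probe sets, 2 probe sets were lower in SHR and 0 higher in limma (6 had an unadjusted p below 0.05, 4 of them higher and 2 lower), and their summed signal was 17143 to 19318 in SHR and 16755 to 18822 in WKY. The lower ones were 1 probe set of Thy1 (-0.77) and 1 of Ina (-0.26). The other probe set of Thy1 differed by -0.13 and that of Ina by 0.35, and neither passed. The markers fixed for astrocytes, endothelium, meninges, choroid plexus, cerebellum and motor neurons held 0 probe sets past the threshold in limma. An unadjusted p below 0.05 was seen for 1 in each of endothelium (higher), meninges (lower) and cerebellum (higher). The marker probe sets of choroid plexus (2), motor neurons (3) and cerebellum (4) all had differences above 0. Those of cerebellum lay at 0.11 to 0.32, with a summed signal of 499 to 540 in SHR and 413 to 511 in WKY. Those of microglia held 3 lower of 7 (5 at an unadjusted p below 0.05, 1 higher and 4 lower; Aif1 differed by -0.52 on one probe set and by 0.51 on the other, which did not pass), with a summed signal of 1903 to 1965 in SHR and 2224 to 2463 in WKY, and those of oligodendrocytes 2 lower of 10, both of Mobp, with Mbp at 0.28 and an unadjusted p below 0.05 (summed signal 8085 to 10147 and 7575 to 9941). The part of any of these in the results below was not tested. The tissue label was checked with Th, Dbh and Hoxa5, genes of noradrenergic neurons and of the caudal hindbrain, whose mean signals were 416, 272 and 982 in SHR and 477, 334 and 1046 in WKY. All 3 differences were below 0 and 0 of 3 passed in limma, while 2 had an unadjusted p below 0.05 (Dbh at -0.27 and Th at -0.18); the part of this in the results was not tested. The probe set of Tlx3, a transcription factor of hindbrain neurons, did not reach the filter.

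The release machinery showed no common shift between the strains, and 3 of its genes differed: Snap25 was higher in SHR, and Vamp2 and Sh3gl2 were lower. These were 3 of 37 tested probe sets (limma, adjusted p below 0.05), against 4.26% of the 18846 probe sets tested on the array. By direction, 1 was higher (2.06% of all tested probe sets were) and 2 were lower (2.20%), counts too small to set the members apart from the array. The median log2 difference between SHR and WKY was 0.017 over the members and 0.016 over all tested probe sets. With log2 differences from -0.40 to 0.37, no member differed by 0.4 or more in either direction. That size was reached by 1063 of all 18846 tested probe sets, so few that 0 of 37 does not set the members apart. A difference of at least 0.2 was measured for 10 of the 37, against 26.9%. An unadjusted p below 0.05 was seen for 12, against 21.0%. For no member did all 5 SHR arrays lie outside the range of the 5 WKY arrays, against 6.13% of all tested probe sets. Standard errors ran from 0.057 to 0.17. For 29 of the 37 probe sets the 95% interval of the difference lay within 0.5 of 0, as it did for 14920 of all 18846 tested probe sets. In this dissected tissue, fewer nerve cells or endings and less of a transcript in each of them cannot be told apart. Snap25, Vamp2 and Sh3gl2 were each called on their only tested probe set. How well its probes match the sequence of each strain was not tested.

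**Figure D1:**
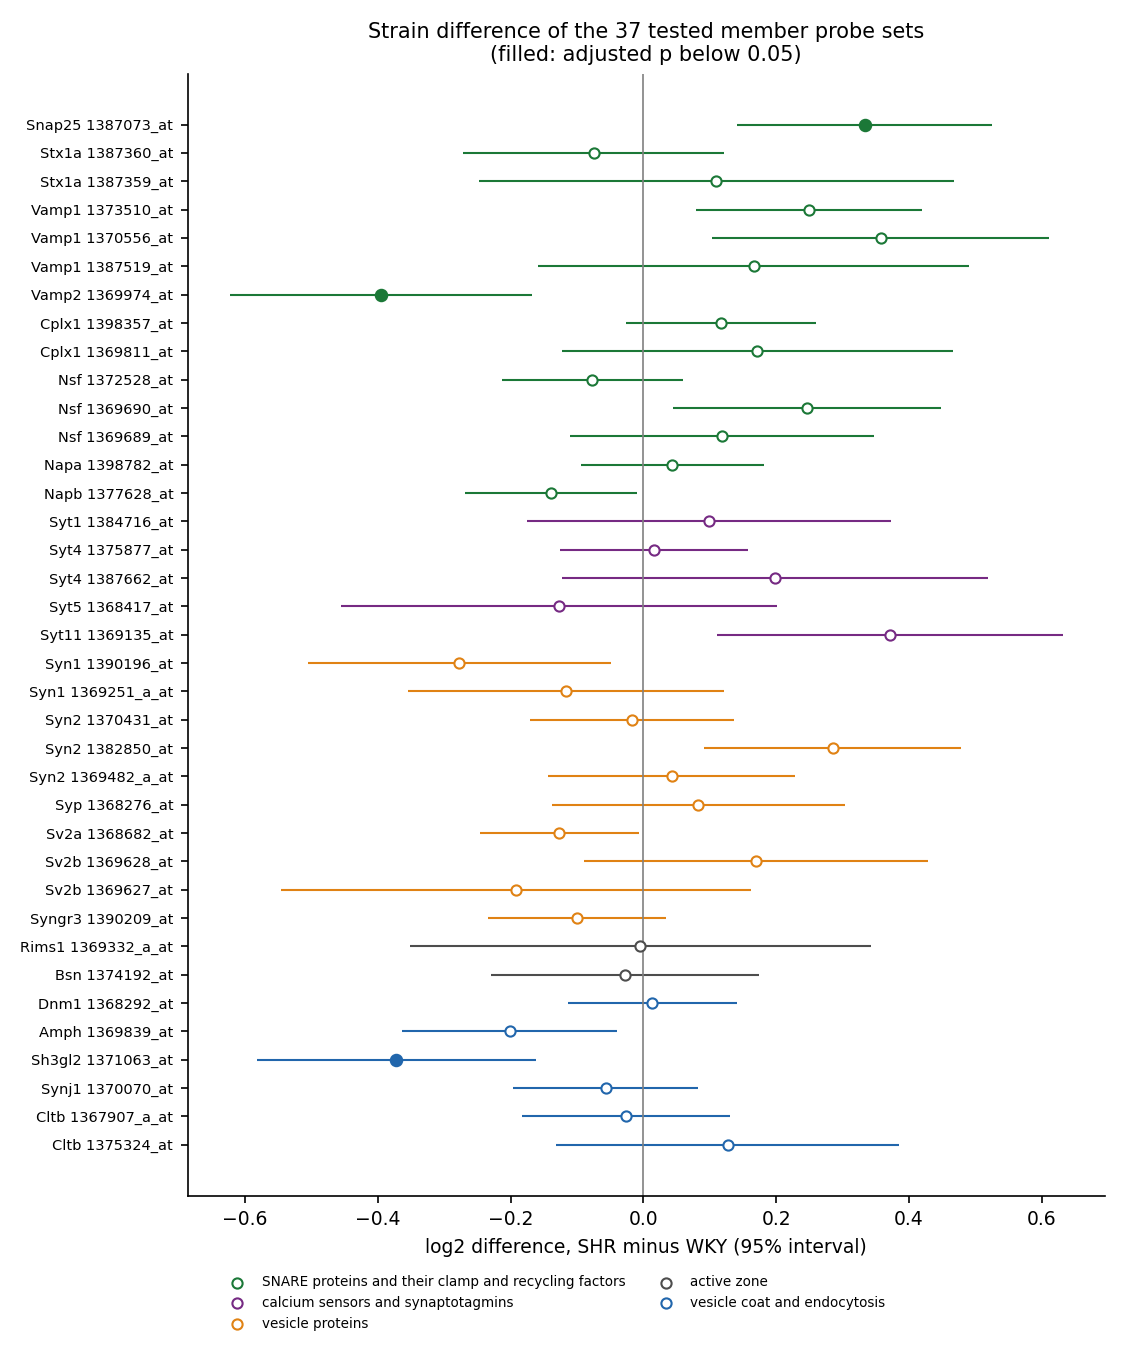
Log2 difference of SHR minus WKY, on log2(signal + 16), for the 37 tested member probe sets, in the order of their roles. Points are limma estimates, lines their 95% intervals, and filled points the 3 probe sets with an adjusted p below 0.05 (Snap25 at 0.33, Vamp2 at -0.40 and Sh3gl2 at -0.37).

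Among the 9 genes of SNARE proteins and their regulators, 8 had a tested probe set, 14 probe sets in all. In limma 6 of the 14 had an unadjusted p below 0.05 (4 higher and 2 lower), against 21.0% of all tested probe sets. By adjusted p 1 was higher, 1 lower and 12 did not pass, where 4.26% of all tested probe sets passed. Snap25, the plasma membrane SNARE that contributes a pair of helices to the fusion complex, was the higher one. Its signal was 3063, 3816, 4518, 3826 and 3471 on the arrays SHR 1 to SHR 5. It was 2614, 3061, 3262, 2653 and 3171 on WKY 1 to WKY 5. SHR 1 lay inside the WKY range and the other 4 SHR arrays above it. The means were 3739 ± 536 in SHR and 2952 ± 299.7 in WKY (SD, n = 5), a log2 difference of 0.33 ± 0.091 (SE; 95% interval 0.14 to 0.53; 1.26-fold; limma adjusted p = 0.0480). The gene is represented by this 1 probe set, with none to set beside it. Ranked by signal on its array, it stood at places 21 to 38 in SHR and 32 to 54 in WKY.

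The Snap25 call was a narrow one. It ended when SHR 2, SHR 3, SHR 4, WKY 1, WKY 2, WKY 4 or WKY 5 was left out, with adjusted p from 0.0663 (without WKY 5) to 0.137 (without WKY 4), and remained without SHR 1, SHR 5 or WKY 3. Quantile normalization lowered the log2 difference to 0.13 (adjusted p = 0.141), and the array median as a covariate lowered it to 0.21 (adjusted p = 0.586).

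**Figure D2:**
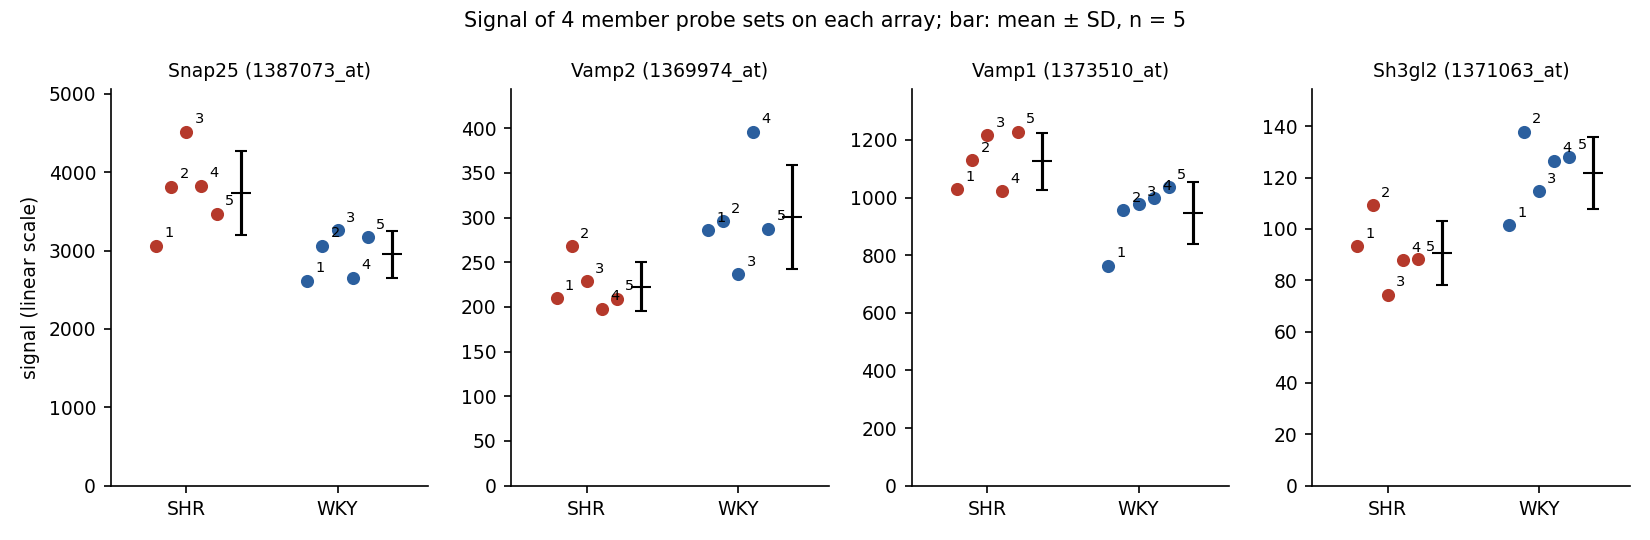
Signal on a linear scale, from 0, of Snap25, Vamp2, Vamp1 and Sh3gl2 on each of the 5 SHR (red) and 5 WKY (blue) arrays, numbered by replicate, with the mean and SD beside the points. In each panel the strains overlap: Snap25 on SHR 1 (3063) lies within the WKY values, and Vamp2 on SHR 2 (268) above the lowest WKY value (237).

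The vesicle SNARE genes Vamp1 and Vamp2 encode the proteins known as synaptobrevins, which do the same work at different synapses. Vamp1 prevails in brainstem and spinal cord and Vamp2 in much of the forebrain. In these arrays their differences had opposite signs. Vamp2 had signals of 209.9, 268, 229, 198 and 209 on SHR 1 to SHR 5. On WKY 1 to WKY 5 it had 286, 296, 237, 396 and 288. All SHR arrays but SHR 2 lay below the WKY values, and WKY 4 stood above the rest. The means were 223 ± 27.4 in SHR and 301 ± 58.4 in WKY (SD, n = 5), a log2 difference of -0.40 ± 0.11 (95% interval -0.62 to -0.17; 1.32-fold lower in SHR; limma adjusted p = 0.0477). This call held when SHR 2 (adjusted p = 0.0286) or WKY 3 (0.0181) was left out. It ended without SHR 1, SHR 3, SHR 4, SHR 5, WKY 1, WKY 2, WKY 4 or WKY 5, with adjusted p from 0.0625 (without SHR 3) to 0.117 (without WKY 4, log2 difference -0.30). It also ended with quantile normalization (-0.34; adjusted p = 0.0856) and with the array median as a covariate (-0.31; adjusted p = 0.480). The second Vamp2 probe set, at 22.4 ± 7.42 (SHR) and 25.0 ± 7.37 (WKY), was too low to test.

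Vamp1 had 3 tested probe sets, none of which passed. On the one of highest signal the values were 1029, 1129, 1217, 1022 and 1229 on SHR 1 to SHR 5. They were 764, 957, 977, 999 and 1036 on WKY 1 to WKY 5. SHR 2, SHR 3 and SHR 5 lay above all WKY arrays, and WKY 1 stood far below the other WKY arrays. The log2 difference was 0.25 ± 0.080 (95% interval 0.08 to 0.42; limma adjusted p = 0.0900). A further probe set had 221 ± 34.3 in SHR and 170.0 ± 32.7 in WKY (SD, n = 5), a log2 difference of 0.36 ± 0.12 (adjusted p = 0.103), with values of 185 to 265 against 122 to 207. The last, with 55.0 ± 17.0 and 46.1 ± 7.01, differed by 0.17 ± 0.15 (adjusted p = 0.570).

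The balance of the pair is described by the log2 level of Vamp1 minus that of Vamp2 on the same array. As the opposite signs prompted this comparison, it is given with no test. The same value was taken for the other gene families with exactly 2 tested members (Syn1 and Syn2, Sv2a and Sv2b, Napa and Napb), 4 pairs in all, chosen after the values had been seen. The Vamp1 minus Vamp2 level was 2.21, 2.01, 2.33, 2.28 and 2.47 on SHR 1 to SHR 5. It was 1.37, 1.64, 1.97, 1.30 and 1.79 on WKY 1 to WKY 5. Every SHR array lay above every WKY array, with SHR 2 and WKY 3 nearest to each other. The mean was 2.26 ± 0.17 in SHR and 1.62 ± 0.28 in WKY (SD, n = 5), a difference of 0.65 ± 0.15 (SE) between the strains. The level itself compares different probes and says nothing of how many molecules of each there were. Differences of opposite sign add up in such a level, and how many other gene pairs on the array come apart in this way was not counted.

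The difference for Vamp1 against Vamp2 was 0.57 or more whichever array was left out. With the dimmer Vamp1 probe sets in place of the brightest, and the same Vamp2 probe set, it was 0.75 and 0.56. All these values come from the arrays whose opposite signs prompted the pairing, so they add no independent evidence for it. Of the other pairs, Napa against Napb differed by 0.18 ± 0.071, Syn1 against Syn2 by -0.26 ± 0.13 and Sv2a against Sv2b by -0.30 ± 0.16, and the strains overlapped in all 3.

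**Figure D3:**
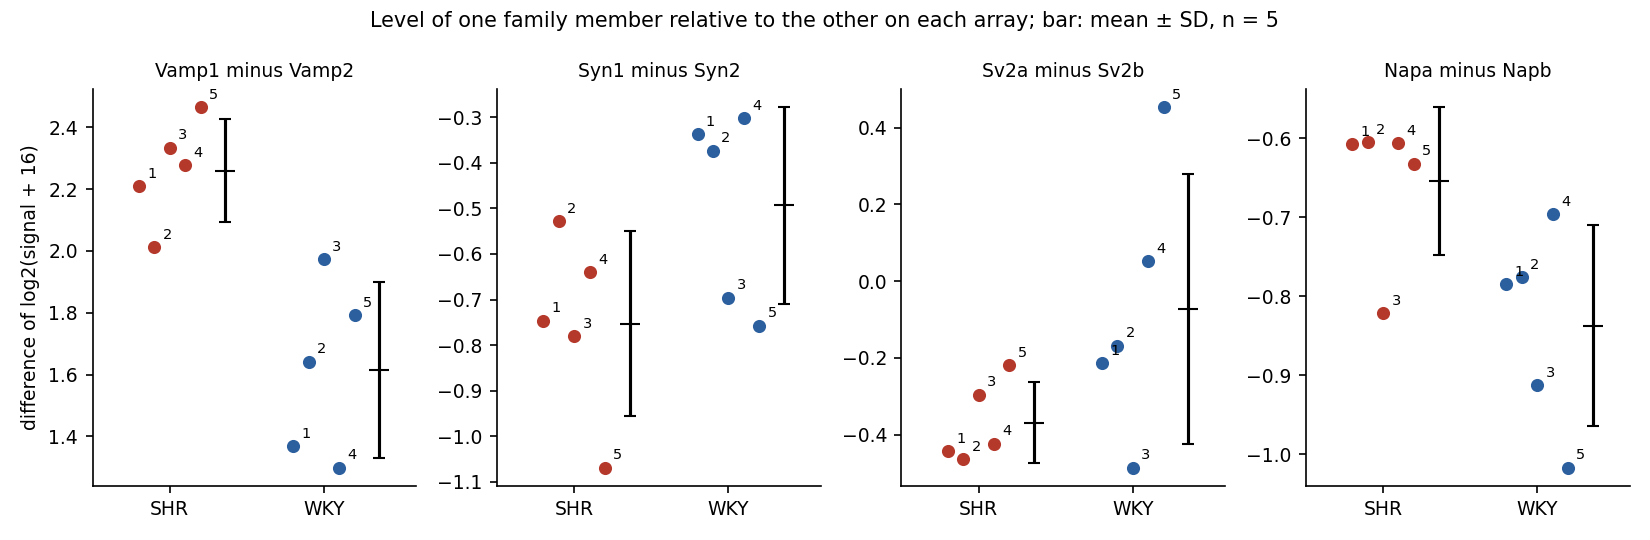
Difference of log2(signal + 16) between the members of 4 gene families on each SHR (red) and WKY (blue) array, numbered by replicate, with mean and SD; each panel has its own axis, which does not start at 0. For Vamp1 minus Vamp2 the SHR arrays lie at 2.01 to 2.47 and the WKY arrays at 1.30 to 1.97, while in the other 3 panels the strains overlap.

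The upstream sequences of the synaptobrevin pair differ in GC content and share some short motifs, and that of Sh3gl2, the other lower gene, is set beside them. They are the 250 bases before the annotated start in RefSeq (assembly GRCr8, of the BN strain, not of SHR or WKY), 5′ to 3′ on the plus strand in each case. Capitals mark the GC box GGGCGG and the cyclic AMP response element TGACGTCA, each searched on both strands; where they touch, the capitals run together. The windows are Vamp1 at chr4:159698644-159698893, Vamp2 at chr10:54292539-54292788 and Sh3gl2 at chr5:104699020-104699269.
Vamp1: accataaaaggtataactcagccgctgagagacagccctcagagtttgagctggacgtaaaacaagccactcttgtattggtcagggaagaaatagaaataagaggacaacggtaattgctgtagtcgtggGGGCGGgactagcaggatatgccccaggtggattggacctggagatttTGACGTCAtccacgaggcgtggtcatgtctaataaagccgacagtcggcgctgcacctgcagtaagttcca
Vamp2: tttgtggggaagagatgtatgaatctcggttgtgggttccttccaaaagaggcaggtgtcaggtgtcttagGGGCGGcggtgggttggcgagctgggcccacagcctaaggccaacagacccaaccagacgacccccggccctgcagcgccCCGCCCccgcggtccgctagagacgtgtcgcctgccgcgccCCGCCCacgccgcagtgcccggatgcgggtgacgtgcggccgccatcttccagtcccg
Sh3gl2: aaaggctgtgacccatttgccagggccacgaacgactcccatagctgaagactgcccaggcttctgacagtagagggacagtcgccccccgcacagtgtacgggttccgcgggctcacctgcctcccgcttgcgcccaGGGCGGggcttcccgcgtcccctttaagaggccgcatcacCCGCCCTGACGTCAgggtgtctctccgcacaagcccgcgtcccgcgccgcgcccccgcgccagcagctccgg

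The Vamp1 window had a GC content of 50.4% with 11 CG dinucleotides, 1 GC box and 1 copy of TGACGTCA. The Vamp2 window had 68.0%, 24 CG dinucleotides and 3 GC boxes, and the Sh3gl2 window 69.2%, 25, and 2 GC boxes with 1 copy of TGACGTCA. RefSeq promoters of 300 bases (250 before and 50 after the start) were found for 27 of the 32 genes, but not for Snap25. Each of the 27 genes entered with 1 promoter, while the set of all promoters was not reduced to 1 per gene. The GC box was in 20 of these 27 promoters (74.1%), against 33.1% of all 33469 promoters of this length. TGACGTCA was in 5 (Cltb, Napa, Sh3gl2, Syn1 and Vamp1; 18.5%) against 1.83%, and TATAAA in 0 against 14.2%. The members' windows were also richer in GC, with a median of 67.0% against 51.7%. A match of letters describes a window and not a bound factor.

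Of the remaining SNARE regulators none passed. Nsf, the ATPase that pulls spent SNARE complexes apart, was measured by 3 probe sets that did not share a sign. The one of highest signal had 1055, 1111, 1103, 1010.2 and 1145 on SHR 1 to SHR 5 and 991, 1153, 1138, 1204 and 1251 on WKY 1 to WKY 5, a log2 difference of -0.077 ± 0.064 (limma adjusted p = 0.525). Another had 691, 821, 668, 753 and 604 in SHR and 499, 569, 704, 532 and 675 in WKY, which gave 0.25 ± 0.096 (adjusted p = 0.149), and the last 0.12 ± 0.11 (adjusted p = 0.564). The strains overlapped on all 3. Napa and Napb, the alpha and beta SNAP adaptors that recruit Nsf, differed by 0.044 ± 0.065 (463 ± 34.0 and 449 ± 29.1; adjusted p = 0.745) and -0.14 ± 0.061 (738 ± 42.5 and 815 ± 57.2; adjusted p = 0.204). For Napb, 4 of 5 SHR arrays lay below all WKY arrays. Stx1a, the syntaxin of the plasma membrane, had 123 ± 18.2 in SHR and 129 ± 8.92 in WKY (SD, n = 5) on its brighter probe set, a log2 difference of -0.075 ± 0.093 (95% interval -0.27 to 0.12). Its dimmer probe set differed by 0.11 ± 0.17. Cplx1, a complexin, had 966 ± 77.8 and 889 ± 65.1 (0.12 ± 0.068; adjusted p = 0.341), and 0.17 ± 0.14 on a dimmer probe set.

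The synaptotagmins had 4 of 6 genes tested, with 5 probe sets. In limma 0 passed and 1 had an unadjusted p below 0.05, against 4.26% and 21.0% of all tested probe sets. The 1 with an unadjusted p below 0.05 was Syt11, a synaptotagmin that does not bind calcium and restrains endocytosis. It had 68.3, 87.0, 99.8, 75.8 and 57.6 on SHR 1 to SHR 5. It had 61.2, 57.2, 63.3, 51.7 and 45.8 on WKY 1 to WKY 5. All SHR arrays but SHR 5 lay above the WKY values. The log2 difference was 0.37 ± 0.12 (95% interval 0.11 to 0.63; adjusted p = 0.0980), and without SHR 5 it was 0.45 and passed (adjusted p = 0.0376). It was 0.062 (adjusted p = 0.924) with the array median as a covariate and 0.21 (adjusted p = 0.416) without both SHR 2 and SHR 3, and it did not pass with any other single array left out (0.29 to 0.41). Syt4, a vesicle protein linked to neuropeptide release, had 1401, 1398, 1284, 1457 and 1600.5 in SHR and 1297, 1403, 1319, 1493 and 1546 in WKY, and its log2 difference was 0.017 ± 0.067 (95% interval -0.13 to 0.16). The second Syt4 probe set, of lower signal, differed by 0.20 ± 0.15 (adjusted p = 0.482). Syt5 had 65.5, 82.4, 106, 57.6 and 70.3 in SHR and 113, 70.0, 63.4, 109 and 71.6 in WKY (-0.13 ± 0.16; adjusted p = 0.679), with high and low arrays in both strains. Syt1, the main fast calcium sensor of forebrain synapses, had 41.9 ± 3.19 and 38.5 ± 8.78 on its only probe set (0.099 ± 0.13; 95% interval -0.17 to 0.37).

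Of the vesicle membrane proteins, 6 of 8 genes had tested probe sets, 10 in all. In limma 0 passed and 3 had an unadjusted p below 0.05, against 4.26% and 21.0% of all tested probe sets. Syn1 and Syn2 encode synapsins, which tether the reserve pool of vesicles. On the brighter Syn1 probe set the signals were 188, 231, 196, 181 and 171 on SHR 1 to SHR 5. They were 245, 256, 198, 305 and 195 on WKY 1 to WKY 5. WKY 3 and WKY 5 fell among the SHR values. The log2 difference was -0.28 ± 0.11 (adjusted p = 0.151), with -0.12 ± 0.11 on the dimmer probe set (adjusted p = 0.588). For Syn2 the 3 probe sets gave -0.017 ± 0.073, 0.28 ± 0.092 and 0.042 ± 0.088. The second of these had 166, 174, 218, 177 and 146 in SHR and 129, 134, 157, 137 and 148 in WKY (adjusted p = 0.0893), with SHR 5 alone inside the WKY range, and without SHR 5 its difference passed (0.34; adjusted p = 0.0365). That was 1 of 10 fits with an array left out; the difference was 0.17 (adjusted p = 0.692) with the array median as a covariate and 0.19 (adjusted p = 0.307) without both SHR 2 and SHR 3.

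Synaptophysin (Syp), an abundant membrane protein of the vesicle, had 494, 735, 666, 620.2 and 463 on SHR 1 to SHR 5 and 542, 558, 498, 625 and 549.7 on WKY 1 to WKY 5. Its SHR arrays spread on both sides of the WKY range, and the log2 difference was 0.083 ± 0.10 (95% interval -0.14 to 0.30). Syngr3, a synaptogyrin, had 1074, 1046, 1109, 1046 and 1129.5 in SHR and 1131, 1086, 1049.7, 1251 and 1298 in WKY (-0.10 ± 0.063; adjusted p = 0.386). Sv2a and Sv2b belong to the vesicle glycoproteins that support priming, and Sv2a is the binding site of the drug levetiracetam. Sv2a had 381 ± 21.0 in SHR and 417 ± 8.37 in WKY (SD, n = 5), with 4 of 5 SHR arrays below all WKY arrays and a small log2 difference of -0.13 ± 0.057 (adjusted p = 0.211). Sv2b had 497 ± 44.7 and 449 ± 105, and its probe sets differed by 0.17 ± 0.12 and -0.19 ± 0.17, neither of which passed (adjusted p = 0.452 and 0.543).

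The active zone could be tested only through Bsn and Rims1, with 1 probe set each. Neither had an unadjusted p below 0.05 in limma, against 21.0% of all tested probe sets. Bsn, the giant scaffold bassoon, had 181, 146, 148, 178 and 205 on SHR 1 to SHR 5 and 192, 148, 175, 165 and 193 on WKY 1 to WKY 5, a log2 difference of -0.027 ± 0.096 (95% interval -0.23 to 0.17). Rims1, which docks vesicles and gathers calcium channels, had 32.3, 47.9, 46.0, 22.7 and 20.1 in SHR and 35.8, 29.2, 35.1, 29.5 and 33.9 in WKY. Its mean difference was -0.0045 ± 0.16 (95% interval -0.35 to 0.34), while its SD was 12.8 in SHR and 3.13 in WKY.

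The coat and endocytic genes were all tested, with 6 probe sets. In limma 2 of the 6 had an unadjusted p below 0.05 (0 higher and 2 lower), against 21.0% of all tested probe sets. By adjusted p 1 was lower in SHR, 0 higher, and 5 did not pass, where 4.26% of all tested probe sets passed. Sh3gl2, endophilin A of neurons, which bends membrane and recruits synaptojanin to the neck of the forming vesicle, was the lower one. It had 93.3, 109, 74.4, 87.8 and 88.3 on SHR 1 to SHR 5. It had 102, 138, 115, 127 and 128 on WKY 1 to WKY 5. SHR 2 and WKY 1 overlapped, and the other 4 arrays of each strain did not. The means were 90.6 ± 12.5 in SHR and 122 ± 14.0 in WKY (SD, n = 5), a log2 difference of -0.37 ± 0.099 (95% interval -0.58 to -0.16; 1.29-fold lower; limma adjusted p = 0.0438). The call held without SHR 2 (adjusted p = 0.0241) or WKY 1 (0.0292) and ended without SHR 1, SHR 3, SHR 4, SHR 5, WKY 2, WKY 3, WKY 4 or WKY 5, with adjusted p from 0.0594 (without WKY 3) to 0.113 (without WKY 4). It also ended with the array median as a covariate (-0.31; adjusted p = 0.427), and it held with quantile normalization (-0.39; adjusted p = 0.0468). A second Sh3gl2 probe set had signals of 4.26 ± 3.92 and 2.07 ± 1.97, too low to test.

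**Figure D4:**
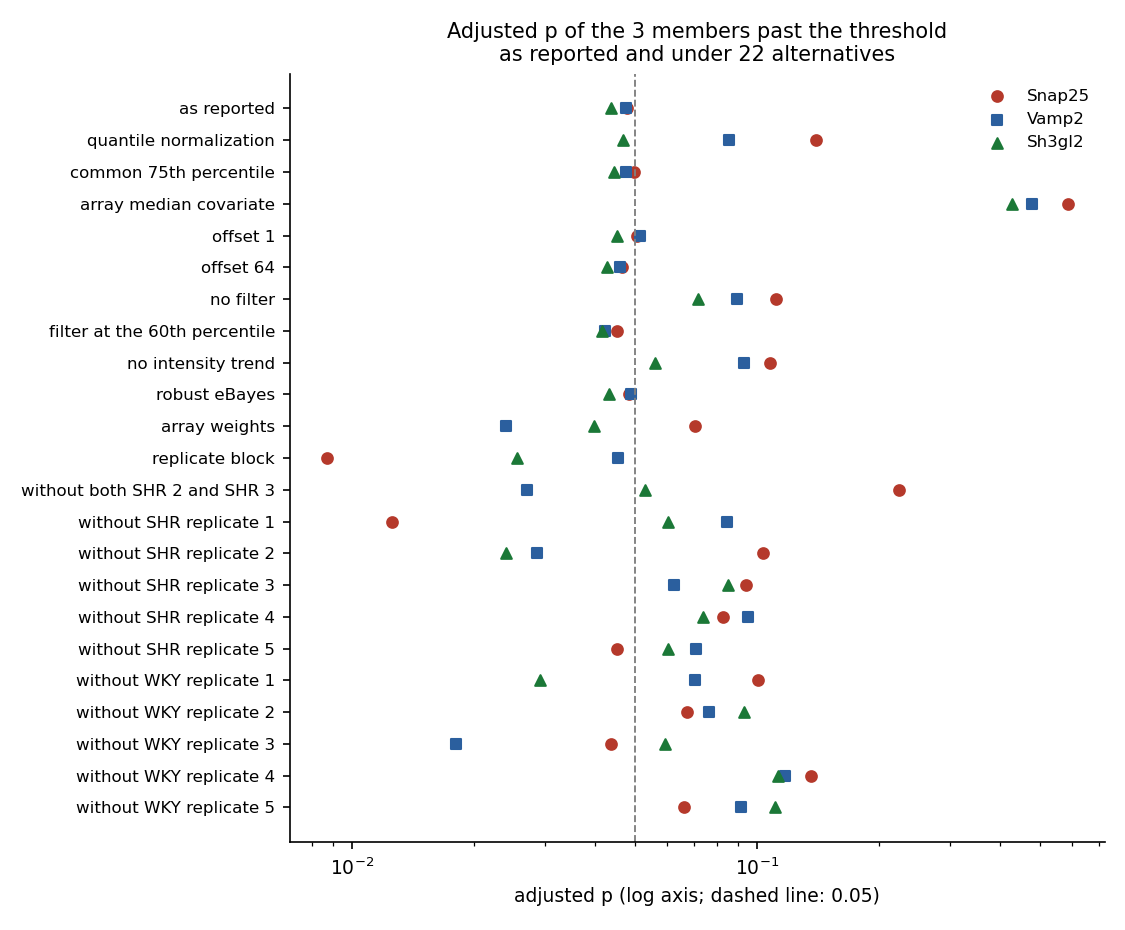
Adjusted p, on a log axis, of Snap25, Vamp2 and Sh3gl2 as reported and under 22 alternatives, with a dashed line at 0.05. As reported the 3 genes lie just left of the line, at 0.0480, 0.0477 and 0.0438, and Snap25 stays left of it under 8 of the alternatives, Vamp2 under 9 and Sh3gl2 under 10.

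The partners of Sh3gl2 did not pass. Amph, amphiphysin, which couples clathrin to dynamin, had 166, 156, 162, 166 and 146 on SHR 1 to SHR 5. It had 157, 187, 199, 199 and 188 on WKY 1 to WKY 5. WKY 1 lay among the SHR arrays and the other 4 WKY arrays above them, and the log2 difference was -0.20 ± 0.076 (adjusted p = 0.141). Dnm1, the neuronal dynamin that severs the vesicle neck, had 1234, 1306, 1214, 1124 and 1249 in SHR and 1231, 1164, 1105, 1315 and 1258 in WKY. Its log2 difference of 0.014 ± 0.060 had a 95% interval of -0.11 to 0.14. Synj1, the lipid phosphatase that helps shed the coat, had 677, 622, 725, 621 and 743 in SHR and 678, 657, 761, 685 and 742 in WKY (-0.057 ± 0.066; 95% interval -0.20 to 0.08). Cltb, a clathrin light chain, differed by -0.026 ± 0.074 on its brighter probe set (589 ± 45.6 and 601 ± 60.8) and by 0.13 ± 0.12 on the dimmer one.

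Of the 32 genes, 7 had no probe set above the filter: Cplx2, Syt2, Syt7, Sv2c, Syngr1, Unc13a and Pclo. Together with dimmer probe sets of Vamp2, Sv2b, Bsn and Sh3gl2 they made 15 untested probe sets, with mean signals from 2.91 to 32.2. In 12 of the 15 the mean log2 level was higher in SHR, as it was in 71.8% of all 12196 untested probe sets. The lower ones were a probe set each of Syngr1 (-0.23), Vamp2 (-0.099) and Pclo (-0.057). The 40th percentile of the array itself was 31.3 to 35.9 in SHR and 26.3 to 32.0 in WKY. Sv2c, a vesicle glycoprotein of basal ganglia and brainstem, had 19.7 to 40.4 in SHR and 10.1 to 20.2 in WKY. Syt2, the fast calcium sensor of hindbrain synapses, had 26.8, 35.3, 38.3, 13.9 and 31.2 in SHR and 20.6, 23.9, 9.01, 16.5 and 21.3 in WKY. In both genes 4 of 5 SHR arrays lay above all WKY arrays, at signals that no detection call backs. Syt7, the slow calcium sensor, had no probe set with a strain mean above 19.4, and on 1 of its 3 the SHR values (3.05 to 4.67) all lay above the WKY values (1.19 to 2.59). Sv2c, Syt2 and Syt7 were picked after their values were seen. How many of all untested probe sets lie apart in this way was not counted.

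The rest of the release apparatus was read from a list of 102 further genes of SNARE tethering and priming, the synaptotagmin family, vesicle transporters and proton pump, the active zone, and the coat. Of these, 74 had tested probe sets, 114 in all, of which 1 was higher and 2 lower in SHR, with a median log2 difference of 0.014. This was 2.63%, against 4.26% of all tested probe sets. The higher one was Bin1, an amphiphysin relative, with 481 ± 63.5 in SHR and 371 ± 45.4 in WKY (SD, n = 5; log2 difference 0.36 ± 0.091; limma adjusted p = 0.0322). The lower ones were Syt16, a synaptotagmin without calcium binding, with 128 ± 19.9 and 181 ± 21.0 (-0.46 ± 0.099; adjusted p = 0.0119), and Epn2, the endocytic adaptor epsin, with 118 ± 12.9 and 159 ± 8.51 (-0.39 ± 0.081; adjusted p = 0.00965). The strains were fully apart on 6 of the 114 probe sets, Syt16 and this one of Epn2 among them, against 6.13% of all tested probe sets. Other probe sets of Epn2 differed by 0.17 ± 0.078 and 0.14 ± 0.13 and did not pass. The 24 probe sets of tethering and priming, 26 of vesicle proteins and transporters and 21 of the active zone held 0 calls in limma. An unadjusted p below 0.05 was seen for 3, 5 and 2 of them, against 21.0% of all tested probe sets.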

How the data were processed

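Total RNA of the NTS was amplified and hybridised to 1-colour Affymetrix Rat 230 2.0 arrays, 5 SHR and 5 WKY, grouped by their titles; the first of each strain carries no number and is called 1. The deposited table gives 1 linear intensity per probe set and array, with GCOS 1.2 named in the submitters' processing notes; how background was handled is not stated there, and detection calls were not used here. The values show that each array was scaled so that its mean, after trimming 2% at each end, is 100. Control probe sets (57) were left out. On log2(signal + 16), limma 3.58.1 (R 4.3.3; lmFit, eBayes with intensity trend, strain as the single term) was fitted to all 18846 probe sets that passed the filter, and p was adjusted over them (Benjamini-Hochberg, threshold 0.05). Log2 differences, and the folds taken from them, are on this scale, which understates changes of low signals. Means and SDs are linear, so a ratio of means can differ from the fold given. The number of arrays limits the precision, and as samples may be pools, p-values reflect the spread among the 10 samples alone.

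Values on every array were given for member probe sets past the threshold, those with unadjusted p below 0.05 and a difference of at least 0.2, and the tested probe set of highest signal of the 2 brightest members of each role, and for both probe sets of a member whose differences lay over 0.4 apart (0 members); of the other release genes, those past the threshold. Sv2c, Syt2 and Syt7 were added after their values were seen. The members and lists were chosen with earlier results of these data known. Alternatives were scaling, array median covariate, offset, filter, moderation, array weights, replicate block, gene level and leaving out arrays; those of the paired genes were added after seeing the data.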

Additional observations from a re-analysis of the deposited data

Results flagged for a closer look

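Among the 37 tested member probe sets, taken in each strain (74 groups of 5 arrays), 2 held an array whose gap to the nearest other array was large against the whole range of its group; chance alone marks about 1 in 20 such groups. Both were WKY 1. On the Vamp1 probe set of highest signal, WKY 1 had 764 and the other WKY arrays 957 to 1036; without it the log2 difference was 0.18 (adjusted p = 0.166). For Amph, WKY 1 had 157 and the other WKY arrays 187 to 199; without it the log2 difference was -0.26 (adjusted p = 0.0659).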

How the results depend on the processing

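The count of member probe sets past the threshold, 3 as reported, was 3 with a common 75th percentile, an offset of 64, a filter at the 60th percentile, robust moderation and 1 probe set per gene, and 2 with array weights. It was 1 with quantile normalization, with an offset of 1, without both SHR 2 and SHR 3 and with the mean of a gene's probe sets, and 0 with the array median covariate, without a filter and without the intensity trend. It ranged from 0 to 3 with 1 array left out. Over all probe sets 803 passed, 209 with the array median covariate, 512 without both SHR 2 and SHR 3, and 480 to 976 with 1 array left out. Of the other release genes 3 passed, 1 with the covariate and 2 to 4 with 1 array left out. The median difference of the members was 0.086 without a filter, which adds the dim probe sets; that of all probe sets was then 0.046. The cause of these changes was not tested. With the replicate block 6 member probe sets passed (Snap25, Vamp2, Sh3gl2, Syt11 with adjusted p = 0.0451, and the brighter 2 of Vamp1 with 0.0294 and 0.0292), and 1214 in all. Same-numbered arrays deviated together with correlations from 0.038 to 0.28 (mean of differently numbered arrays -0.032), 3 of 5 SHR arrays correlated best with their own number, and nothing in the labels pairs the arrays.

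Signs of small differences turned for Nsf (0.0052), Syp (-0.018), Syngr3 (0.032) and Bsn (0.13) with the covariate, for Syt4 (-0.0084) and Dnm1 (-0.0072) with quantile normalization, for Rims1 (0.0070) with an offset of 64, for Bsn (0.0095) with array weights, and for Syp (-0.082), Bsn (0.10) and Dnm1 (-0.013) without both SHR 2 and SHR 3. With 1 array left out, differences ran from -0.025 to 0.053 for Syt4, -0.10 to 0.10 for Rims1, -0.088 to 0.023 for Bsn and -0.019 to 0.044 for Dnm1. The differences of Snap25, Vamp2, Sh3gl2 and the brighter 2 Vamp1 probe sets kept their sign in all 22 alternatives run on them. The difference for Vamp1 against Vamp2 was 0.57 to 0.73 with 1 array left out and 0.56 with the third Vamp1 probe set; that of Sv2a against Sv2b was -0.40 to -0.16, and that of Napa against Napb 0.14 to 0.22. Without detection calls, low signals cannot be told from background.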
